A study of Homo sapiens with 6 samples.

Results

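The genes of the contractile actin filament were followed in 6 RNA-seq libraries of a human liver cancer line. The set holds 10 genes chosen by symbol: the smooth muscle actin ACTA2, the tropomyosins TPM1, TPM2 and TPM4, the calponins CNN1, CNN2 and CNN3, their relatives TAGLN and TAGLN2, and the myosin light chain MYL9. All 10 are among the 24432 symbols of the tables. The resistant group was 3 libraries of PLC/PRF/5 cells selected by stepwise exposure to lenvatinib, which inhibits VEGF and FGF receptor kinases, with the genotype label Lenvatinib resistant and the treatment label Lenvatinib. The sensitive group was 3 libraries also labelled PLC/PRF/5, with the labels WT and control. PLC/PRF/5 is an established hepatocellular carcinoma line. Selection began at 20 µmol/L and is stated to have ended at 40 mmol/L, a pair of units that disagree. Exposure to the drug and resistance to it cannot be told apart, as each resistant library has both labels. Whether replicates came from separate cultures is not stated, so p-values measure the spread between these libraries, which may be technical. The series title asks about GOLM1, CSN5 and EGFR signaling, and the contractile genes are not part of that question.

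Actin filaments generate force when myosin II pulls on them. Tropomyosins are coiled-coil proteins that lie along the filament and govern which myosins and other proteins may bind, and calponins and transgelins bind actin and stabilise bundles. ACTA2, TAGLN, CNN1 and MYL9 are textbook markers of smooth muscle and of activated stellate cells and myofibroblasts in liver, whereas TAGLN2, CNN2, CNN3 and TPM4 are found in many non-muscle cells. Many of these genes are targets of serum response factor (SRF), which with the MRTF co-activators binds the CArG box.

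Values are FPKM, the authors' level scaled to transcript length and library size. Means are given ± SD over the 3 libraries of a group, folds are ratios of mean FPKM, and log2 fold changes are resistant minus sensitive on the log2(FPKM + 1) scale. A library had 10391 to 10916 genes at 1 FPKM or more. The steps between its lowest values put its depth within 3.46% of any other. That search covered only ratios near 1, so a larger difference in depth could not have shown. FPKM summed over all genes was 366048 to 377923 in resistant libraries and 410492 to 475088 in sensitive libraries. Pearson's r of a resistant with a sensitive library was 0.680 to 0.706 on the log2(FPKM + 1) scale, a correlation across genes, which are not independent replicates. Sensitive replicate 3 stood apart from its group, at 0.9515 and 0.9643, whereas the other sensitive pair reached 0.9947. The liver markers of the line were present in sensitive and low in resistant libraries, with 17 hepatocyte genes summing to 22.55 to 54.0 FPKM in resistant libraries and to 5273 to 5461 FPKM in sensitive libraries, and all 16 tested ones were called lower in resistant cells. Of these, 8 reached 1 FPKM, the level needed for testing, in sensitive libraries only, which fixed their direction. Of 9 smooth muscle and pericyte markers none reached 1 FPKM in any library. They summed to 0.334 to 0.785 FPKM in resistant and 0.182 to 0.314 FPKM in sensitive libraries, and MYOCD, the smooth muscle co-activator of SRF, was at 0 in all 6. Of 10 fibroblast and stellate cell markers 8 stayed under 1 FPKM in every library. The list summed to 0.256 to 0.607 FPKM in resistant libraries and 37.55 to 59.87 FPKM in sensitive libraries. Nearly all of the sensitive sum was RELN, and LRAT was at 0 throughout. PDGFRB was at 1.22, 1.09 and 0.526 FPKM in sensitive libraries and 0.00442 to 0.0354 FPKM in resistant ones. That both groups are one line rests on the labels and was not tested here. Beside the low correlation and the hepatocyte genes, a stretch of genes around ACTA2, given below, was at or near 0 in every sensitive library, while 5 of its 7 genes were above 0 in every resistant one. Every difference below is therefore one between these libraries as labelled, and the part that the hepatocyte difference has in it was not tested.

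In resistant cells 6 of the 9 tested contractile genes were higher (MYL9, TAGLN2, TPM1, CNN2, TAGLN and ACTA2) and 2 were lower (CNN3 and TPM4) by limma, the threshold being a Benjamini-Hochberg adjusted p of 0.05 over all tested genes. TPM2 did not pass and CNN1 was below the filter. Of 11694 tested genes 67.7% were called, 35.2% higher and 32.5% lower, so most genes of any kind differ here. The median log2 fold change was 0.57 over the 9 genes and 0.08 over all tested genes. Groups did not overlap for 8 of the 9 (5 above and 3 below), and for 74.4% of all tested genes, 39.3% with resistant above and 35.1% with resistant below. ACTA2 reached the filter's 1 FPKM in resistant libraries only, which fixed its direction, and it is part of the counts and the median above. Sizes were far from even, and 4 of the changes with a fold (MYL9, TAGLN2, TPM1 and CNN3) exceeded 2-fold.

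**Figure D1:**
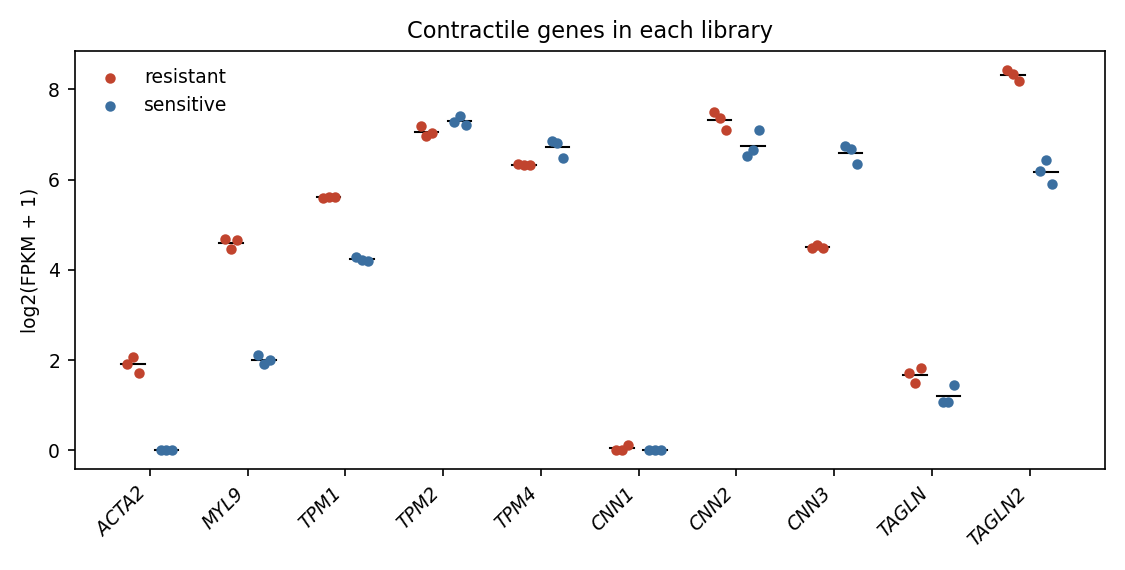
Level of the 10 contractile genes as log2(FPKM + 1), with 1 point per library, resistant (red) left of sensitive (blue), and a bar at the mean of 3 libraries. MYL9, TPM1, TAGLN2 and CNN3 show wide gaps between the groups, TPM2 and TPM4 lie close together, and CNN1 lies at or near 0 throughout.

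The promoters of ACTA2, CNN2 and TPM4 hold the letters of a CArG box or come within 1 letter of it, and they are shown because the box, a pair of C, a run of 6 A or T and a pair of G, is the classical SRF element of this gene class. Sequences are from the RefSeq promoter table (GRCh38.p14), read 5′ to 3′ on the gene's strand, with the boxes in capitals.
ACTA2, minus strand, chr10:88952810-88952919: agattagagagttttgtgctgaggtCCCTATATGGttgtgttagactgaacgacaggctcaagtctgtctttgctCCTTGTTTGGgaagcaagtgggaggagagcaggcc
CNN2, plus strand, chr19:1026494-1026553: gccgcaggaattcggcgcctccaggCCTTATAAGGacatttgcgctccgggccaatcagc
TPM4, plus strand, chr19:16067340-16067399: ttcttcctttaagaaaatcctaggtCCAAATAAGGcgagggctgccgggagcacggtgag
The boxes of CNN2 and TPM4 match exactly and begin 89 and 173 bases before the annotated start. The 2 boxes of ACTA2 begin 121 and 71 bases before its start and each has 1 letter outside A and T in the central run of 6. The table covers 8 of the 10 genes (all but TAGLN and MYL9) in 15 windows of 250 bases before to 50 bases after a start. An exact box, which reads as a CArG box on both strands, was in the promoters of 2 of these 8 genes and of 1.60% of 27305 genes in the table. With 1 mismatch allowed it was in 3 of 8 and in 9.88%. The 8 genes have more windows per gene than the table as a whole. By window the exact box was in 2 of 15 and in 1.29% of 35116, and with 1 mismatch in 3 of 15 and in 8.13%. These matches describe letters only, and the 2 exact ones belong to a gene called higher (CNN2) and a gene called lower (TPM4) in resistant cells. Both calls were near the threshold, as given below, and the groups overlapped for CNN2.

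ACTA2, the actin of smooth muscle, was at 2.77, 3.22 and 2.30 FPKM in the resistant libraries and was listed at 0 in each sensitive library. No fold is given against 0, which can be a failed estimate. The limma adjusted p of ACTA2 was 7.89e-06, but the filter's 1 FPKM was reached in resistant libraries only, which fixed its direction. Its level was low even where it was detected. ACTA2 made up 0.0688% of the summed FPKM of ACTA2, ACTB and ACTG1 in resistant libraries (SD 0.0122, n = 3) and was listed at 0 in sensitive ones, so the cytoplasmic actins supplied nearly all actin mRNA in both groups.

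The genes on both sides of ACTA2 shared its pattern. STAMBPL1, a deubiquitinase gene, was at 1.91, 2.21 and 2.04 FPKM in resistant libraries and listed at 0 in all 3 sensitive ones. FAS, the death receptor, was at 1.69, 2.06 and 1.81 FPKM in resistant libraries, and at 0.00543 FPKM in sensitive replicate 1 and 0 in the other two. In RefSeq order 7 genes of the tables form a stretch that ends before LIPA (RNLS, LIPJ, STAMBPL1, ACTA2-AS1, ACTA2, FAS and FAS-AS1). None of the 7 exceeded 0.00543 FPKM in a sensitive library, and 5 of them were above 0 in every resistant library. RNLS and LIPJ were low in resistant libraries too, at 0.147 to 0.220 and 0.182 to 0.205 FPKM. LIPA, a lysosomal lipase and the next gene after this stretch, was detected in all libraries, at 7.72 ± 1.33 FPKM in resistant and 39.4 ± 8.54 FPKM in sensitive libraries (mean ± SD, n = 3 each). These neighbours were chosen after their values were seen. STAMBPL1, ACTA2-AS1 and FAS overlap ACTA2 on the opposite strand in GENCODE release 29. With the strand setting not given, reads of these genes and of ACTA2 cannot be told apart. What accounts for the empty stretch was not tested.

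**Figure D2:**
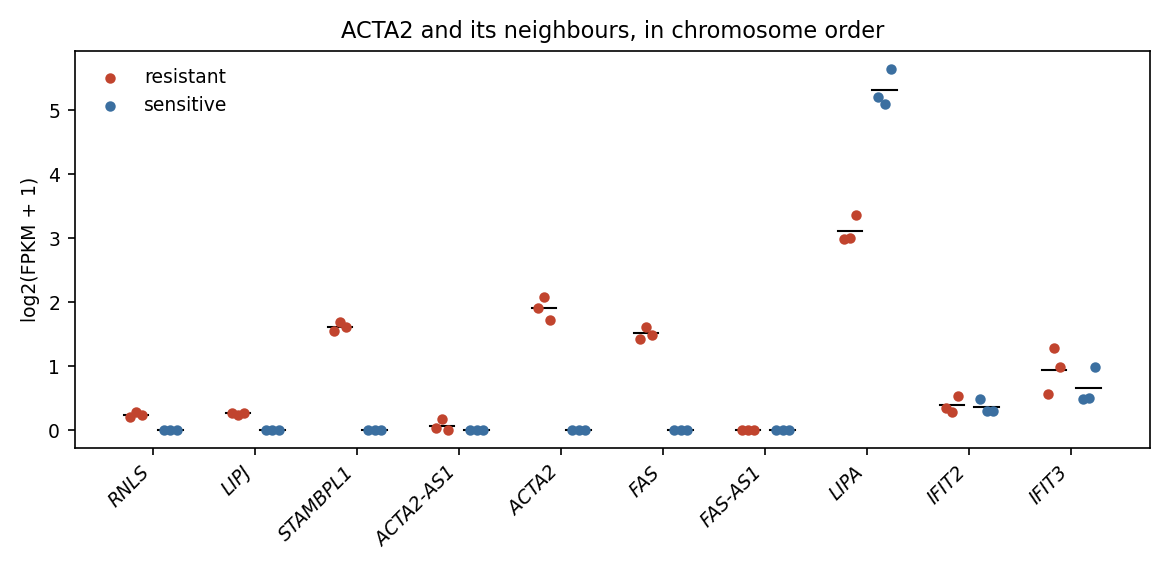
Level as log2(FPKM + 1) of ACTA2 and selected neighbours in the order of their chromosome, with 1 point per library, resistant (red) left of sensitive (blue), and a bar at the mean. From RNLS to FAS-AS1 the sensitive points lie at or near 0, while LIPA, the next gene, is detected in both groups.

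MYL9, a regulatory light chain of myosin II found in smooth muscle and in many non-muscle cells, had the largest fold change of the 8 tested genes that have one. It stood at 24.7, 21.0 and 24.2 FPKM in resistant libraries, against 3.31, 2.79 and 2.99 FPKM in sensitive ones. The 2 groups were far apart, and the means of 23.3 ± 2.02 FPKM in resistant and 3.03 ± 0.263 FPKM in sensitive libraries differed 7.69-fold (log2 fold change 2.59, SE 0.122, limma adjusted p = 3.45e-06). MYL9 was still the minor light chain, since MYL12A and MYL12B, its close relatives, were at 343 ± 4.46 and 331 ± 3.47 FPKM in resistant libraries. MYL12A was also higher, at 1.99 times its sensitive mean (log2 0.99, adjusted p = 7.43e-05), whereas MYL12B did not pass (log2 -0.04, adjusted p = 0.772). Of the FPKM summed over the 3 light chains MYL9 held 3.35 ± 0.304% in resistant and 0.586 ± 0.0365% in sensitive libraries. MYL12A held 49.2 ± 0.455% in resistant and 33.5 ± 3.26% in sensitive libraries, and MYL12B 47.5 ± 0.249% in resistant and 65.9 ± 3.29% in sensitive libraries. How the authors' counting divided reads between such similar sequences is uncertain. DLGAP4-AS1 overlaps MYL9 on the opposite strand and ran the other way, at 0 to 0.0840 FPKM in resistant libraries and 0.496 to 0.940 FPKM in sensitive ones.

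The tropomyosins moved in different directions. TPM1 was at 47.2, 47.7 and 48.3 FPKM in resistant libraries, against 18.6, 17.7 and 17.4 FPKM in sensitive ones. The libraries of a group lay close together, and the difference was 2.67-fold (log2 1.37, SE 0.0902, adjusted p = 1.61e-05 in limma). TPM4, the short non-muscle tropomyosin, was at 80.4, 78.8 and 78.5 FPKM in resistant libraries, against 115, 111 and 88.6 FPKM in sensitive ones. It fell, without overlap, to 0.758 of the sensitive mean (log2 -0.39, limma adjusted p = 0.0253). TPM2, the most abundant of these tropomyosins, was at 145, 125 and 129 FPKM in resistant libraries, against 154, 168 and 146 FPKM in sensitive ones. The highest resistant value lay just under the lowest sensitive one, and the difference did not pass (log2 -0.23, 95% interval -0.48 to 0.02, limma adjusted p = 0.0918). TPM3, a related gene outside the set, was called higher at 56.0 ± 0.710 FPKM in resistant and 40.4 ± 6.85 FPKM in sensitive libraries (log2 0.47, limma adjusted p = 0.0206).

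The tropomyosin pool kept a similar size in FPKM and changed in makeup. FPKM summed over all genes was higher in sensitive libraries, as given above. Neither the pool nor the values of single genes, such as TPM4 and TPM2, were rescaled for that in the main fit. Summed FPKM of TPM1, TPM2 and TPM4 was 259.9 ± 11.3 in resistant and 278.6 ± 23.3 in sensitive libraries. TPM1 held 18.4 ± 0.949% of that sum in resistant and 6.44 ± 0.471% in sensitive libraries. TPM4 held 30.5 ± 0.957% in resistant and 37.4 ± 2.39% in sensitive libraries, and TPM2 51.1 ± 1.88% in resistant and 56.1 ± 2.25% in sensitive libraries. TPM1 therefore had the largest shift in share, and TPM2 remained the first of them in every library. Tropomyosin genes make many isoforms from alternative starts and exons, and values per gene do not show which ones were present.

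The balance between CNN2 and CNN3 differed between the groups, although CNN2 had the higher mean in both. In sensitive replicates 1 and 2 CNN3 was above CNN2, and only in sensitive replicate 3 was CNN2 higher. CNN3, an acidic calponin of non-muscle cells, was at 21.2, 22.6 and 21.5 FPKM in resistant libraries, against 106, 101 and 80.0 FPKM in sensitive ones. No resistant library came near a sensitive one, and CNN3 fell by 2.08 on the log2 scale (SE 0.129, adjusted p = 1.25e-05 in limma), its sensitive mean being 4.39 times its resistant mean. CNN2, a calponin of many cell types, was at 181, 164 and 136 FPKM in resistant libraries, against 90.4, 99.2 and 136 FPKM in sensitive ones. It was called higher (log2 0.57, SE 0.184, limma adjusted p = 0.0292), but sensitive replicate 3 lay slightly above the lowest resistant library and the groups overlapped. CNN2 has 11 pseudogenes by name in GENCODE release 29, so its reads may be shared with copies. CNN1, the calponin that marks mature smooth muscle, was at 0, 0.0105 and 0.0943 FPKM in resistant libraries and was listed at 0 in the sensitive ones. The higher of these values was 8.99 times the lower one, close to a whole multiple.

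CNN2 held 87.9 ± 1.61% of summed calponin FPKM in resistant and 52.9 ± 8.97% in sensitive libraries, and CNN3 held 12.1 ± 1.58% in resistant and 47.1 ± 8.97% in sensitive libraries. The sums themselves were 182 ± 22.6 FPKM in resistant and 204.3 ± 10.4 FPKM in sensitive libraries. In sensitive replicate 3 CNN2 held 63.0%, against 46.0% and 49.5% in the other sensitive libraries, where CNN3 held the larger part. Without sensitive replicate 3 the mean sensitive share was 47.8% for CNN2 and 52.2% for CNN3. Both genes next to CNN3 were lower as well: its divergent noncoding transcript CNN3-DT was at 1.30 ± 0.224 FPKM in resistant and 12.8 ± 1.07 FPKM in sensitive libraries (limma adjusted p = 4.76e-06), and SLC44A3, a choline transporter-like gene, at 0.554 ± 0.301 FPKM in resistant and 24.2 ± 2.38 FPKM in sensitive libraries (limma adjusted p = 2.66e-06). SLC44A3 was under 1 FPKM in each resistant library, so the filter fixed its direction. These neighbours were chosen after their values were seen.

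**Figure D3:**
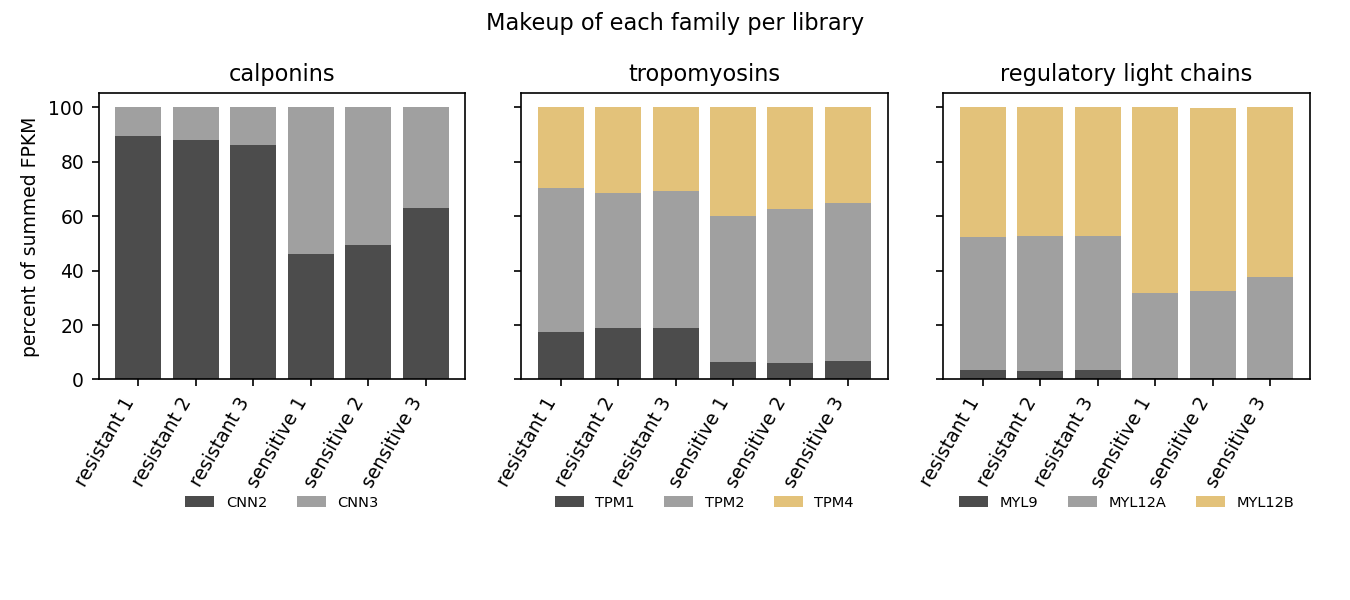
Share of each gene in the summed FPKM of its family, in percent, with 1 stacked bar per library, resistant left of sensitive; CNN1 is too small to draw. CNN2 takes 86.3% to 89.5% of the calponin sum in resistant and 46.0% to 63.0% in sensitive libraries, and the TPM1 and MYL9 shares are larger in every resistant library.

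Of the transgelins, TAGLN2 was the abundant one. It was at 345, 324 and 290 FPKM in resistant libraries, against 71.8, 85.8 and 58.8 FPKM in sensitive ones. The groups were well separated, with means of 319 ± 27.7 FPKM in resistant and 72.1 ± 13.5 FPKM in sensitive libraries that differed 4.43-fold (log2 2.14, SE 0.155, limma adjusted p = 2.52e-05), and TAGLN2 stood at percentile 99.3 of all symbols by mean level in resistant and at percentile 96.3 in sensitive cells. TAGLN, also called SM22-alpha and a marker of smooth muscle, was at 2.28, 1.84 and 2.53 FPKM in resistant libraries, against 1.10, 1.12 and 1.74 FPKM in sensitive ones. Its lowest resistant value barely exceeded the highest sensitive one, and the log2 fold change was 0.48 (SE 0.148, limma adjusted p = 0.0253). PCSK7, on the opposite strand and overlapping TAGLN, was more abundant, at 7.23 ± 1.10 FPKM in resistant and 9.90 ± 0.932 FPKM in sensitive libraries. TAGLN held 0.696 ± 0.155% of the transgelin sum in resistant and 1.89 ± 0.862% in sensitive libraries, so its part of the pool was smaller in resistant cells while its own level was higher.

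**Figure D4:**
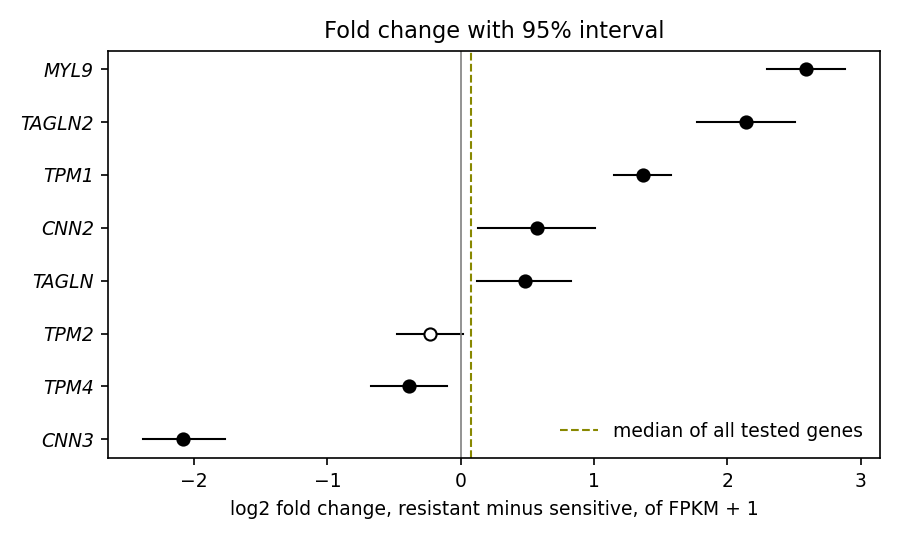
Log2 fold change of FPKM + 1, resistant minus sensitive, with the 95% interval from limma for 8 tested genes. Filled points passed an adjusted p of 0.05 and the open point (TPM2) did not; ACTA2, listed at 0 in sensitive libraries, and the untested CNN1 are left out. Changes run from -2.08 for CNN3 to 2.59 for MYL9, and the dashed line marks the median of all tested genes, 0.08.

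By mean level, resistant cells ranked TAGLN2 first, followed by CNN2, TPM2, TPM4, TPM1, MYL9, CNN3, ACTA2, TAGLN and CNN1. CNN2 and TPM2, MYL9 and CNN3, and ACTA2 and TAGLN were neighbours whose libraries overlapped. In sensitive cells TPM2 came first, followed by CNN2, TPM4, CNN3, TAGLN2, TPM1, MYL9 and TAGLN, with ACTA2 and CNN1 both listed at 0. CNN2, TPM4, CNN3 and TAGLN2 formed a run in which each overlapped the next. Of the smooth muscle markers named above, ACTA2, TAGLN and CNN1 took the last 3 places in both groups, whereas MYL9 ranked 6 of 10 in resistant and 7 of 10 in sensitive cells. In bulk RNA, more cells that express a gene and more RNA per cell cannot be told apart.

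The changes of MYL9, TAGLN2, TPM1 and CNN3 passed in each of the 15 alternatives, including a test against a 1.5-fold change. The calls of TAGLN, CNN2 and TPM4 were near the threshold. TAGLN lost its call under quantile normalization (limma adjusted p = 0.158, with a range of 0.0012 to 1 over all alternatives), CNN2 under scaling to the geometric mean sample (0.0985, range 0.000475 to 0.882) and TPM4 under quantile normalization (0.197, range 0.000104 to 1). TAGLN also lost it under that scaling (limma adjusted p = 0.0534) and without the filter (0.0609), and CNN2 without the filter (0.0572). All of them lost it in the test against a 1.5-fold change. Leaving out a library moved the count of lower genes from 2 to 3 without sensitive replicate 3, where TPM2 passed (log2 -0.28, limma adjusted p = 0.0164, range 0.0164 to 1 over its alternatives), and to 1 without any other single library, where TPM4 did not pass. The count of higher genes was 4 without resistant replicate 1 and without sensitive replicate 1 or 2, 5 without resistant replicate 2 or 3, and 6 without sensitive replicate 3. TAGLN did not pass without resistant replicate 1 or 3 or sensitive replicate 1 or 2 (limma adjusted p 0.0734 to 0.088), nor CNN2 without resistant replicate 1 or 2 or sensitive replicate 1 or 2 (0.0764 to 0.104).

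Other parts of the actin machinery were set beside these genes. Their counts are to be read against all tested genes, of which 35.2% were called higher and 32.5% lower, with a median log2 fold change of 0.08. Among the remaining actins, ACTG1, one of the cytoplasmic actins, was higher at 1637 ± 72.0 FPKM in resistant and 847 ± 119 FPKM in sensitive libraries (log2 0.96, limma adjusted p = 0.000502). ACTB, the other, was at 2383 ± 149 FPKM in resistant and 2057 ± 106 FPKM in sensitive libraries and did not pass (log2 0.21, adjusted p = 0.109), although under quantile normalization it did (log2 0.67, limma adjusted p = 0.000867, range 0.000867 to 1). The muscle actins ACTA1, ACTC1 and ACTG2 stayed below 1 FPKM in every library. The list thus had 1 of 2 tested genes higher and none lower, with a median log2 fold change of 0.58.

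Of 9 tested myosin II genes 3 were higher, 3 lower and 3 not called (median log2 fold change -0.04). These counts are close to the shares over all tested genes, 35.2% higher and 32.5% lower. MYH9, the heavy chain of non-muscle myosin IIA, was at 283.5 ± 26.7 FPKM in resistant and 70.0 ± 2.37 FPKM in sensitive libraries (log2 2.00, limma adjusted p = 5.28e-06). PPP1CB, the catalytic subunit of myosin phosphatase, was higher by 1.06 and MYL12A by 0.99 on the log2 scale, and the light chain MYL6B fell by 0.70, a call not made without any 1 of the resistant replicates (limma adjusted p 0.0632 to 0.0784). The other lower genes, named after their values were seen, were MYH14 and MYL6. MYH14, another non-muscle heavy chain, ran opposite to MYH9 with the largest fitted change of the list, at 0.0220 ± 0.0350 FPKM in resistant and 4.73 ± 1.17 FPKM in sensitive libraries (log2 -2.47, limma adjusted p = 1.24e-05). MYH14 reached the filter's 1 FPKM in sensitive libraries only, which fixed its direction. MYL6, the essential light chain, was at 576 ± 44.2 FPKM in resistant and 870 ± 82.2 FPKM in sensitive libraries (log2 -0.59, limma adjusted p = 0.00335). The smooth muscle heavy chain MYH11 and the smooth muscle light chain kinase gene MYLK stayed below 1 FPKM in every library.

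Thin-filament partners outside the set gave 3 higher and 1 lower of 4 tested, with a median log2 fold change of 0.67. Over all tested genes 35.2% were called higher and 32.5% lower. Smoothelin (SMTN), an actin-binding protein of contractile smooth muscle, was at 24.8 ± 2.32 FPKM in resistant and 6.60 ± 0.767 FPKM in sensitive libraries (log2 1.76, limma adjusted p = 2.73e-05). TMOD3, which caps filament pointed ends, was higher by 0.86 and TPM3 by 0.47. Caldesmon (CALD1), which binds tropomyosin and actin, fell to 6.17 ± 0.516 FPKM in resistant, against 17.4 ± 7.84 FPKM in sensitive libraries (log2 -1.26, limma adjusted p = 0.0147). In sensitive replicate 3 CALD1 was at 8.61 FPKM, against 23.6 and 20.1 FPKM in the other sensitive libraries. The list had 1 higher gene without resistant replicate 2. CALD1 missed the threshold without resistant replicate 1 or sensitive replicate 2 (limma adjusted p = 0.0543 and 0.052), TMOD3 without resistant replicate 2 (0.0518) and TPM3 without any 1 of the resistant replicates (0.06 to 0.0666).

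Of the actin cross-linkers and adhesion anchors 10 of 12 tested genes were higher, none was lower and 2 (TLN1 and LIMA1) were not called. Their median log2 fold change, 1.17, was the highest of the 4 related lists. Over all tested genes 35.2% were called higher and 32.5% lower, with a median of 0.08. The LIM protein FHL2 was at 22.6 ± 3.00 FPKM in resistant and 0.263 ± 0.0453 FPKM in sensitive libraries (log2 4.22, limma adjusted p = 7.94e-07). It reached the filter's 1 FPKM in resistant libraries only, which fixed its direction. Zyxin (ZYX), a focal adhesion protein, was at 211 ± 23.1 FPKM in resistant and 12.7 ± 1.75 FPKM in sensitive libraries (log2 3.96). The filamin FLNA was at 410 ± 16.4 FPKM in resistant and 33.4 ± 4.99 FPKM in sensitive libraries (log2 3.59), and paxillin (PXN), another focal adhesion protein, at 48.3 ± 3.17 FPKM in resistant and 9.13 ± 1.14 FPKM in sensitive libraries (log2 2.29, limma adjusted p = 6.68e-06). Without sensitive replicate 3 the list had 11 genes higher and 1 lower.

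**Figure D5:**
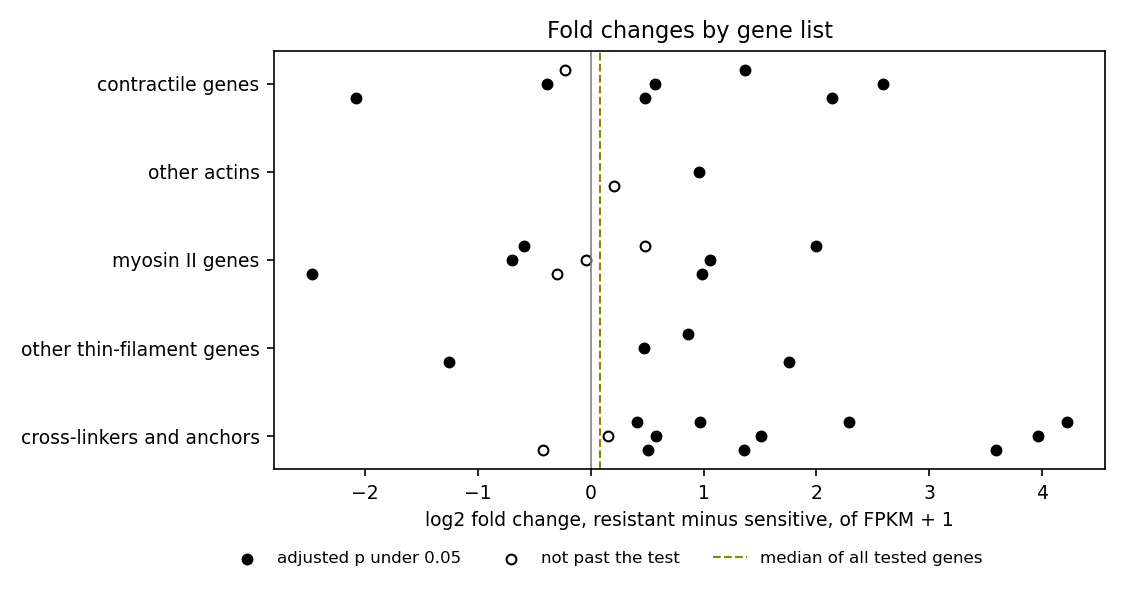
Log2 fold change of FPKM + 1, resistant minus sensitive, of each tested gene (1 point each, spread vertically only to separate them) in the contractile set, without ACTA2, and in 4 lists of related genes. Filled points passed an adjusted p of 0.05. Cross-linkers and anchors reach 4.22 (FHL2), while the contractile genes lie between -2.08 and 2.59. FHL2 and MYH14 each reached the filter's 1 FPKM in only 1 group, which fixed their direction.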

How the data were processed

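The authors deposited 1 table per library with 1 FPKM value per gene symbol. The unit was inferred from the values, which RPKM could equally give. The submitters' processing notes name cutadapt and HISAT2. For versions, strand setting, build, gene models and the program that counted reads the state is: not given in the sources used here. Input was 1.5 µg of RNA per sample, per the labels' protocols. Groups and replicate numbers came from the sample titles. No nonzero value was identical between any 2 libraries.

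Genes with at least 1 FPKM in at least 3 libraries were tested by limma-trend (limma 3.58.1, R 4.3.3) after adding a pseudocount of 1 and taking log2, in 1 fit of all 6 libraries by group, with Benjamini-Hochberg adjustment over all 11694 tested genes. Fold changes on this scale understate changes of low genes. Residual degrees of freedom were 4 and prior ones 2.75. The fit was also run on simulated data in which far fewer genes differed, which cannot show how it behaves with as many as here. Alternatives, 1 at a time, were 2 other normalizations (quantile, geometric mean sample), limma without trend or with robust variances, the filter dropped or raised (mean FPKM 5 or more), 0.1 as pseudocount, the replicate number as a block, testing against a 1.5-fold change, and the removal of each library with the tested genes kept. Other steps used Python 3.11.15, pandas 2.3.3, numpy 2.4.6 and matplotlib 3.10.9. No read counts were used, and the number of libraries limits precision. The 10 genes and all lists were chosen with earlier results of these data known. From each of the 4 related lists up to 4 called genes with a mean of at least 5 FPKM were named, largest absolute log2 fold change first; a list with fewer than 2 such genes gave its 2 most abundant ones; other genes are named where a count or a contrast needed them. A few items are not reported here.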

Additional observations from a re-analysis of the deposited data

How the results depend on the processing

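No fitted member changed sign, and neither did any related gene named by the fixed rule. Fold changes of other genes in the text, among them MYL12B, MYH14, MYL6, TLN1 and LIMA1, were not followed under the alternatives. Of 133 member fold changes under an alternative, 108 kept their side of the threshold, 24 lost the call (TAGLN, CNN2 and TPM4) and 1 gained it (TPM2); of 210 for the named related genes, 194 kept it. ACTA2 and TAGLN could not be fitted at a mean of at least 5 FPKM. The cause of the changes below was not tested unless the setting itself shows it.

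Of 7920 genes called in all, 4973 remained in number at a mean of at least 5 FPKM, where 7396 were tested, and 4357 in a test against a 1.5-fold change. That test also gave 1 lower member, 1 lower myosin gene, 1 higher and 0 lower thin-filament genes and 6 higher cross-linkers. Quantile normalization gave 1 lower member and 2 higher actins. Members called higher numbered 6 in the main fit and 5 under quantile normalization. They numbered 4 under scaling to the geometric mean sample, without the filter, at a mean of at least 5 FPKM and in the test against a 1.5-fold change. Without the filter 1 other actin and 2 thin-filament genes were lower. A CArG box with 1 mismatch was in 3 members, against 2.

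With the replicate number as a block, 1 member (CNN3) was lower and 5 were higher, and the adjusted p was 0.073 for CNN2 and 0.0566 for TPM4. Deviations from the group mean correlated at -0.422, 0.0717 and -0.228 for same-numbered libraries, and at -0.155 to 0.346 for differently numbered ones. With 3 libraries per group these values cannot show whether same-numbered libraries share more than a number.

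Leaving out each library gave 6675 to 9442 called genes, 4 to 6 higher and 1 to 3 lower members, 1 higher and 0 lower other actins, 3 to 4 higher and 2 to 4 lower myosin genes, 1 to 3 higher and 0 to 1 lower thin-filament genes, and 9 to 11 higher and 0 to 1 lower cross-linkers.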

Other observations

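Some genes next to other contractile genes in RefSeq order also differed, and the following were chosen after their values were seen. TPM2 lies beside CA9, a carbonic anhydrase of the cell surface, which was listed at 0 in every resistant library and was at 15.2, 13.6 and 13.7 FPKM in sensitive ones. RAB8A, a GTPase of vesicle transport next to TPM4, was at 30.1 ± 0.878 FPKM in resistant and 63.2 ± 2.70 FPKM in sensitive libraries (mean ± SD, n = 3 each; limma adjusted p = 6.24e-05). TGIF2, a homeobox repressor gene next to MYL9, was at 6.42 ± 0.218 FPKM in resistant and 16.8 ± 1.77 FPKM in sensitive libraries (limma adjusted p = 9.69e-05), opposite in direction to MYL9. ECSIT, beside the nearly silent CNN1, was at 4.20 ± 0.243 FPKM in resistant and 33.7 ± 13.9 FPKM in sensitive libraries (limma adjusted p = 0.000108).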
